A study of Malus domestica with 18 samples.

Results

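The response of apple embryonic axes to nitric oxide (NO) was followed at the longest aging time of the series. NO axes came from seeds of Malus domestica Borkh. kept on wet quartz sand at 33°C for 21 days. Their isolated embryos were exposed for 3 h to the vapor of 14.5 mM NaNO2 in 0.2 M HCl, a mixture that gives off NO, and were then rinsed and kept for 48 h on moist filter paper. Control axes came from seeds aged in the same way for 21 days, and their embryos went through the same 48 h without fumigation. Each group had 3 samples, which the submitters call biological replicates, so that 6 of the 18 samples of the series were compared. All 18 target genes measured by RT-qPCR are described, and the reference genes Sar1 and Pdi served only as normalizers. Both groups were aged, so the comparison shows the response to the NO fumigation in aged tissue and not the effect of aging. No mock fumigation is described for the controls. NO therefore cannot be told apart from other vapors of the mixture, the 3 h exposure or the rinse. None of the 20 genes marks another seed organ, and the labelled tissue could not be checked in this way. In whole axes, fewer cells of a type and less RNA per cell cannot be told apart.

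NO is a gaseous signal that breaks dormancy and promotes germination in many seeds. Target of rapamycin (Tor) is a kinase that promotes protein synthesis and growth when nutrients are plentiful, and Raptor presents substrates to it. Late embryogenesis abundant (Lea) proteins protect cell structures in drying seeds. Heat shock proteins are chaperones that fold, hold or disaggregate damaged proteins, and protein L-isoaspartyl methyltransferase (Pimt) repairs aspartyl residues that age has altered.

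Relative expression was deposited as a ratio, scaled so that the controls of each aging time average close to 1. The deposited quantification cycles (Cq, where 1 more cycle means less template) ran from 20.4 to 30.0 for the targets at 21 days. Sar1, a small GTP-binding protein of vesicle transport, was read at 22.7, 23.2 and 23.0 cycles in NO axes, against 23.0, 22.7 and 22.7 cycles in control axes. Pdi, which forms disulfide bonds in new proteins, was read at 25.0, 25.2 and 25.1 cycles in NO axes, against 25.1, 25.3 and 25.2 cycles in control axes. The mean cycle of the pair was 24.01 ± 0.183 in NO axes and 24.02 ± 0.0328 in control axes (SD, n = 3 each), a difference of -0.0117 cycles (two-sided exact permutation test, p = 1, where 0.1 is the smallest p that 3 against 3 allow). The p was 0.7 for Sar1 and 0.2 for Pdi alone, and none of the 3 passed after Benjamini-Hochberg adjustment (1, 0.6 and 1 for Sar1, Pdi and their mean). With 3 against 3 no p could fall under 0.05, so this test cannot show that the reference genes were stable. NO minus control was 0.0967 cycles for Sar1 and -0.12 cycles for Pdi. The ranges of the 2 groups overlapped for Sar1, for Pdi and for their mean.

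The deposited ratios were compared with the cycles gene by gene, because the normalizer moves all genes that share it. For Saur, Pimt, ClpB1, ClpB4, Hsp70a, Hsp70c, Hsp20a and Hsp20b the normalizer implied by ratio and cycle differed from the mean of Sar1 and Pdi by a root mean square of at most 0.0284 (log2). For Tor, Raptor, the 4 Lea genes, Hsp90 and both Cpn60 genes it was larger by 0.196 to 0.291 in NO axes than in control axes. This second normalizer stood at 0.205, 0.350 and 0.0943 in NO axes, against 0.192, -0.151 and -0.0417 in control axes. Log2 differences of these 9 genes are thus less negative, or more positive, on the deposited scale than with Sar1 and Pdi, all by a similar amount. The source of the second normalizer was not tested.

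The ratios listed for Hsp70b followed the reference genes and not its own cycles. In 18 of 18 samples the listed ratio equalled the geometric mean of the ratios listed for Sar1 and Pdi, within a relative tolerance of 1e-06, and no other target gene did so in any sample. At 21 days the listed ratios were 1.15, 0.890 and 0.996 in NO axes, against 0.971, 1.01 and 1.02 in control axes, and the geometric means of the reference genes were the same numbers. Hsp70b is therefore described from its cycles with Sar1 and Pdi, a choice made after the data were seen.

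**Figure D1:**
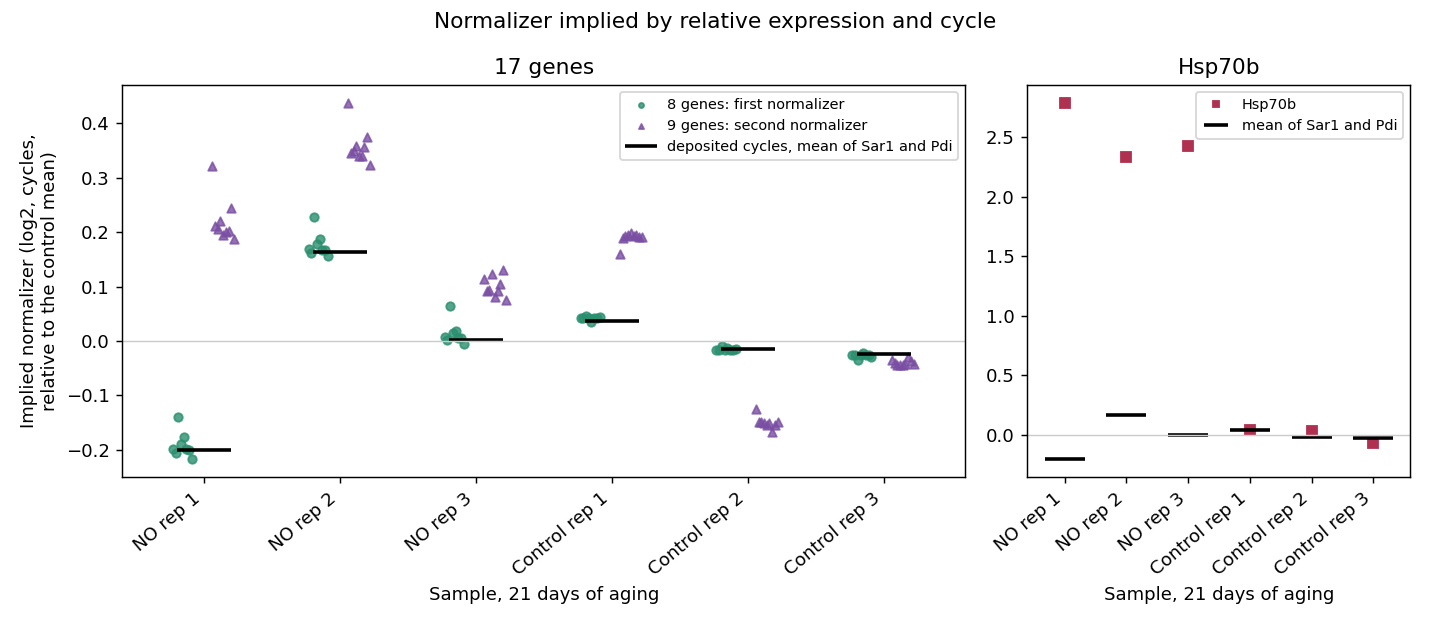
Normalizer implied by each gene's deposited ratio and cycle (log2, in cycles, relative to the control mean) in the 3 NO and 3 control samples at 21 days. Circles are the 8 genes that follow Sar1 and Pdi, triangles the 9 genes of the second normalizer, squares the row listed for Hsp70b, and black bars the deposited mean of Sar1 and Pdi. The triangles lie above the bars in all NO samples, and the squares lie between 2.33 and 2.79 in NO samples.

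After 21 days of aging, 8 of the 18 listed genes differed between NO and control axes (adjusted p under 0.05, limma), which is 44.4% of those tested. Expression of 5 genes fell (27.8%), namely Raptor, Tor, Hsp70c, Hsp70a and Hsp20a, and that of 3 genes rose (16.7%), namely Saur, ClpB4 and Hsp90. With Hsp70b taken from its cycles, 9 of 18 genes passed (50%), of which 6 were lower (33.3%) and 3 higher (16.7%). The 6 that fell are both measured genes of the Tor complex, all 3 Hsp70 genes and 1 small heat shock gene. The median log2 difference of the 18 genes was then -0.09, and Tor, Raptor, Saur and the 3 Hsp70 genes passed in the same direction with every normalizer tried. The balance of the calls moved with the normalizer. From the cycles with Sar1 and Pdi, 10 genes passed (55.6%), with 8 lower (44.4%) and 2 higher (11.1%), and with cycles centred on the 18 targets 5 were lower and 10 higher. Centring gives the 18 targets the same mean in every sample, so the large falls shift all genes upward by construction. It raised the median of all genes by 0.40 relative to the deposited scale. The higher calls that centring added cannot be told apart from this shift. The other 9 genes were Lea1, Lea2a, Lea2b, Lea4, Pimt, ClpB1, Cpn60a, Cpn60b and Hsp20b. On the deposited scale they had log2 differences between -0.48 and 0.39, and 8 of them had overlapping groups. Over all 18 listed genes the groups did not overlap in 9 (50%), with NO below in 5 (27.8%) and above in 4 (22.2%). The 95% intervals of the 9 genes not called reached from -0.94 to 0.77 on that scale. Changes of up to 1.71-fold higher or to 0.523 of the control level lay within these limits. From the cycles with Sar1 and Pdi, Lea1 and Lea4 passed as lower, and the interval of Lea1 reached -1.27.

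**Figure D2:**
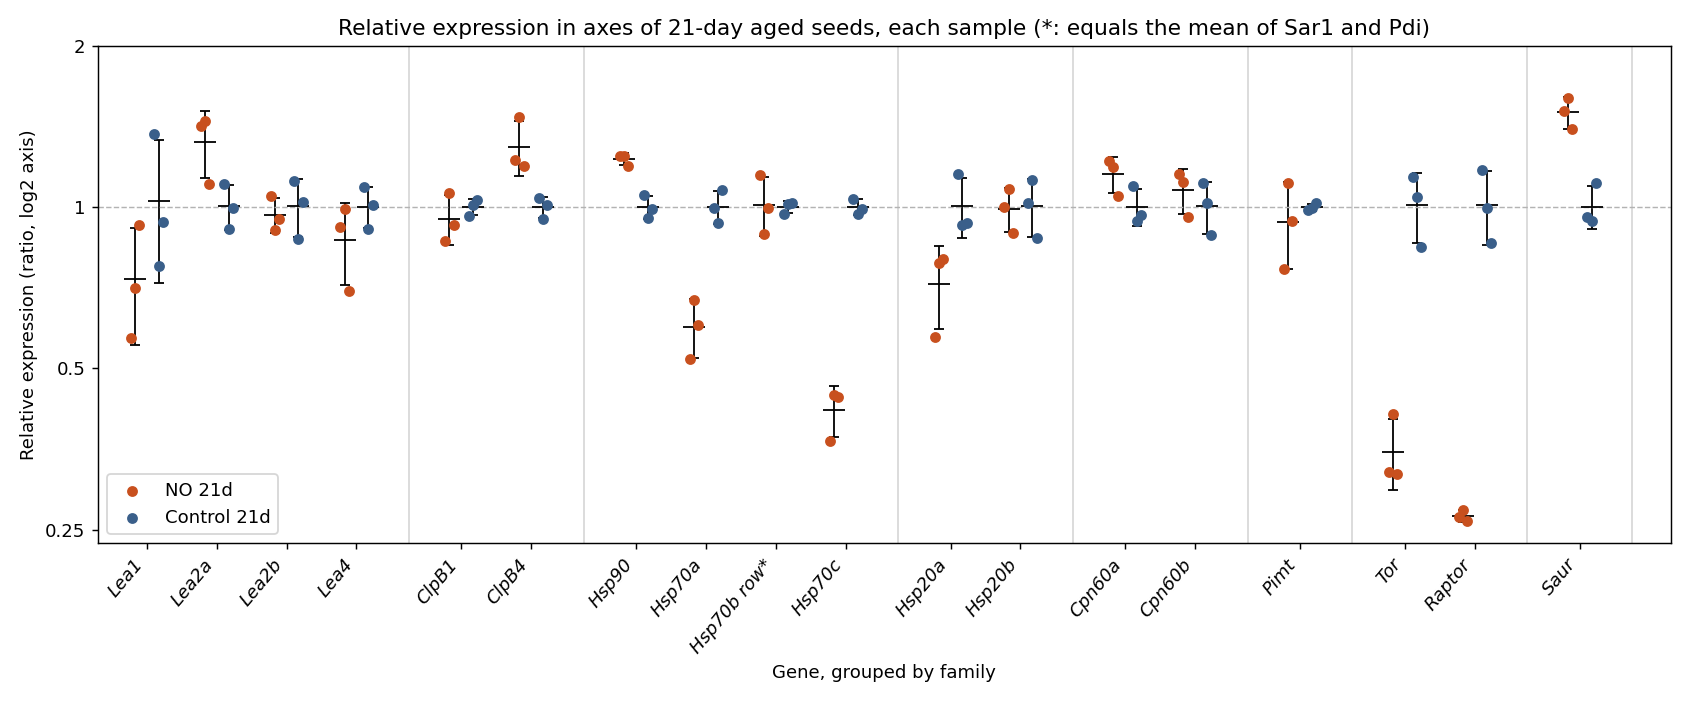
Relative expression (ratio on a log2 axis) of the 18 genes in each of 3 NO and 3 control samples at 21 days, with bars for the mean and SD. Points of NO axes lie clear below the controls for Raptor, Tor, Hsp70c, Hsp70a and Hsp20a and clear above for Saur, ClpB4, Hsp90 and, by a margin of 1.1048 against 1.1033, Lea2a. The row marked with an asterisk is the one listed for Hsp70b, which equals the mean of Sar1 and Pdi.

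Raptor, the scaffold of the Tor complex, was the most reduced of the genes measured on the deposited scale. Its relative expression was 0.264, 0.272 and 0.260 in NO axes, against 1.17, 0.996 and 0.855 in control axes. On these deposited ratios, which for Raptor follow the second normalizer, the NO samples were nearly alike and lay far below every control. Their coefficient of variation was 2.44% on that scale, the lowest of all genes in NO axes. The mean was 0.265 ± 0.00648 in NO axes and 1.01 ± 0.16 in control axes (SD, n = 3 each). The log2 difference was -1.92 (standard error 0.16, 95% interval -2.26 to -1.57, adjusted p = 1.87e-09 from limma). With Sar1 and Pdi it was -2.12. The raw cycles already showed it, at 26.9, 27.0 and 26.8 in NO axes, against 24.7, 24.6 and 25.0 in control axes.

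Tor, the kinase itself, fell to 0.320, 0.411 and 0.317 in NO axes, against 1.14, 1.05 and 0.842 in control axes. The highest NO sample was below the lowest control by more than the range of the NO samples. Its mean was 0.349 ± 0.0534 in NO axes and 1.01 ± 0.151 in control axes (SD, n = 3 each), with a log2 difference of -1.53 (standard error 0.18, 95% interval -1.91 to -1.15, adjusted p = 1.99e-07 from limma). With Sar1 and Pdi the difference was -1.79. For Tor and Raptor the call held under each alternative that was run, and both share the second normalizer. The deposited table lists 3 gene identifiers for each of them, so what each apple copy contributed is not known. Their primers, given because the largest deposited falls rest on these reactions, come from the study's primer list and carry the 5 bases at the 3′ end in capitals.
Tor forward: atctggtggagcagcTTTGC
Tor reverse: tcgttataccgttctgcATCAC
Raptor forward: tgaatgctgttgtggATTGG
Raptor reverse: gctacaatctgatgaaGAAGG

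Saur, a small auxin up-regulated RNA of the kind that links auxin to cell expansion, was the gene with the largest rise. Its relative expression was 1.51, 1.60 and 1.40 in NO axes, against 0.957, 0.942 and 1.11 in control axes, and every NO sample was above every control. It averaged 1.502 ± 0.1 in NO axes and 1.003 ± 0.0919 in control axes (SD, n = 3 each). The log2 difference was 0.59 (standard error 0.12, 95% interval 0.34 to 0.83, adjusted p = 2.17e-04 from limma). Saur follows the Sar1 and Pdi normalizer, and re-derived from the cycles the difference was 0.59 as well (adjusted p = 2.66e-04 from limma). The only identifier listed for it is MDP0000807487.

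The Hsp70 genes encode chaperones that bind unfolded chains in several compartments, and all 3 were reduced once Hsp70b was read from its cycles. Hsp70b (MDP0000322220), whose closest Arabidopsis protein in the primer list is a cytosolic Hsp70, crossed threshold at 23.5, 23.4 and 23.4 cycles in NO axes, against 21.0, 21.0 and 20.8 cycles in control axes. All NO samples thus needed more than 2 further cycles, with no overlap between groups, while Sar1 and Pdi differed by the small amounts given above. With Sar1 and Pdi the log2 difference was -2.52 (95% interval -2.79 to -2.26, adjusted p = 3.69e-16 from limma), which is 0.174 of the control level at 1 doubling per cycle. With the second normalizer it was -2.29, and with Sar1 or Pdi alone -2.41 and -2.63. No other gene had a larger difference in cycles at 21 days.

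Hsp70c (MDP0000416692), matched to a mitochondrial Hsp70, had a relative expression of 0.365, 0.447 and 0.442 in NO axes, against 1.04, 0.971 and 0.994 in control axes. Every NO sample was below the lowest control, and the controls differed little among themselves. The mean was 0.418 ± 0.0456 in NO axes and 1.0004 ± 0.0335 in control axes (SD, n = 3 each), and the log2 difference was -1.26 (standard error 0.13, 95% interval -1.54 to -0.99, adjusted p = 2.99e-08 from limma). Its cycles were the latest of the panel, near 30.0 in NO axes.

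Hsp70a, for which 5 identifiers are listed, had a relative expression of 0.520, 0.670 and 0.603 in NO axes, against 0.996, 0.934 and 1.07 in control axes. The groups did not overlap. The mean was 0.597 ± 0.0753 in NO axes and 1.002 ± 0.0706 in control axes (SD, n = 3 each), with a log2 difference of -0.75 (standard error 0.12, 95% interval -0.99 to -0.51, adjusted p = 9.55e-06 from limma). The cycles of the NO samples were almost equal, at 24.99, 24.99 and 24.98, so nearly all spread of their ratios came from the reference genes. The primers of the 3 Hsp70 reactions differ. Among 12 pairs of primers from different Hsp70 genes, the longest run of bases shared on either strand was 3 to 6. They are shown to identify the 3 reactions, again with the 5 bases at the 3′ end in capitals.
Hsp70a forward: ttgtcgggtcagggTCTAG
Hsp70a reverse: agcattgcacattgaaGAGCG
Hsp70b forward: atcaccaacgacaaGGGCA
Hsp70b reverse: ctttgcctccaccttCTTCT
Hsp70c forward: caatgatgctcagagACAGG
Hsp70c reverse: accaccaagatcaaatACAGC

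Hsp90, a chaperone of kinases and hormone receptors, showed a small rise. Its relative expression was 1.25, 1.25 and 1.19 in NO axes, against 1.05, 0.955 and 0.993 in control axes, without overlap. It averaged 1.23 ± 0.0313 in NO axes and 1.001 ± 0.0505 in control axes (SD, n = 3 each; log2 difference 0.30, 95% interval 0.08 to 0.51, adjusted p = 0.0227 from limma). The call depended on the normalizer. With Sar1 and Pdi the difference was 0.08 (adjusted p = 0.643), and with Pdi alone -0.03 (adjusted p = 0.834). With cycles centred on the 18 targets, which shifts all genes upward, it was 0.62 (adjusted p = 1.25e-06). The call was also lost when only the 6 compared samples were fitted (adjusted p = 0.0819) and without NO replicate 1 (adjusted p = 0.0561), NO replicate 2 (0.0514), control replicate 2 (0.0844) or control replicate 3 (0.063).

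**Figure D3:**
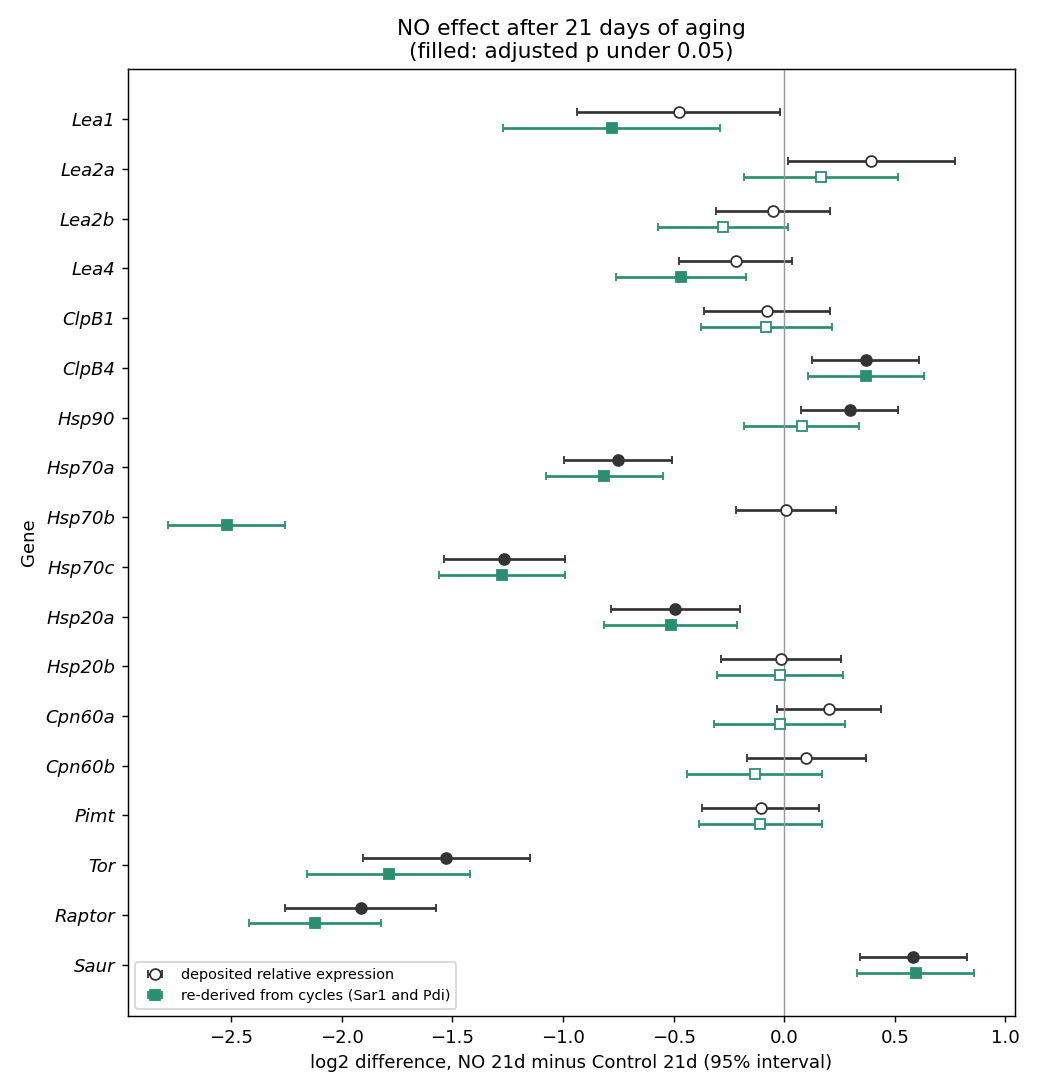
Log2 difference of NO minus control at 21 days with 95% intervals, from the deposited ratios (circles) and from the cycles with Sar1 and Pdi (squares), filled where adjusted p is under 0.05. Tor, Raptor, Saur, ClpB4, Hsp70a, Hsp70c and Hsp20a are filled on both scales. Hsp90 is filled only on the deposited one, and Lea1, Lea4 and Hsp70b only from the cycles. Hsp70b lies at 0.01 on the deposited scale and -2.52 from the cycles.

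Of the Clp/Hsp100 genes, which encode disaggregases, ClpB4 rose and ClpB1 did not pass. ClpB4, matched to a mitochondrial protein, had 1.23, 1.47 and 1.19 in NO axes, against 1.04, 0.951 and 1.01 in control axes, with NO replicate 2 the highest. Its mean was 1.30 ± 0.153 in NO axes and 1.001 ± 0.046 in control axes (SD, n = 3 each; log2 difference 0.37, 95% interval 0.12 to 0.61, adjusted p = 0.0126 from limma). The difference from the cycles with Sar1 and Pdi was also 0.37, but the call was lost with Pdi alone (0.26, adjusted p = 0.104) and without NO replicate 2 (adjusted p = 0.0736) or control replicate 2 (0.0514). ClpB1 averaged 0.952 ± 0.101 in NO axes and 1.0004 ± 0.0353 in control axes (log2 difference -0.08, 95% interval -0.36 to 0.21).

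Small heat shock proteins hold unfolded proteins until other chaperones refold them. Hsp20a, of class I, had 0.573, 0.786 and 0.799 in NO axes, against 1.15, 0.928 and 0.934 in control axes. NO replicate 1 was the lowest sample and control replicate 1 the highest, and the groups did not overlap. The log2 difference was -0.49 (standard error 0.14, 95% interval -0.78 to -0.20, adjusted p = 0.00609 from limma), which did not pass without NO replicate 1 (adjusted p = 0.0561) or with the second normalizer (-0.29, adjusted p = 0.181), and which was 0.03 with centred cycles. Hsp20b, of class II, averaged 0.993 ± 0.0943 in NO axes and 1.01 ± 0.124 in control axes, with a difference of -0.02 (95% interval -0.29 to 0.26).

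The chaperonins Cpn60a and Cpn60b, barrel-shaped folding machines of mitochondria, did not pass. Cpn60a ran from 1.05 to 1.22 in NO axes, against 0.944 to 1.09 in control axes (log2 difference 0.20, 95% interval -0.03 to 0.44). Cpn60b ran from 0.959 to 1.15 in NO axes, against 0.886 to 1.11 in control axes (0.10, interval -0.17 to 0.37). Re-derived with Sar1 and Pdi both were near 0, at -0.02 and -0.13. Among the 4 chaperones matched to mitochondrial proteins, Hsp70c fell, ClpB4 rose and the Cpn60 genes passed in neither direction, with a median of 0.15 on the deposited scale and -0.08 from the cycles with Sar1 and Pdi. Of the 6 chaperones without such a match, 3 fell and 1 rose with Hsp70b from its cycles. Over all 18 genes 33.3% were lower and 16.7% higher, and neither group of chaperones was tested against the rest.

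None of the 4 Lea genes passed on the deposited scale. Lea1 varied most within both groups, with 0.569, 0.705 and 0.925 in NO axes, against 1.37, 0.778 and 0.938 in control axes, and the groups overlapped. Its log2 difference was -0.48 (95% interval -0.94 to -0.02, adjusted p = 0.0759 from limma). Lea4 had 0.916, 0.990 and 0.699 in NO axes, against 1.09, 0.910 and 1.01 in control axes (log2 difference -0.22, 95% interval -0.47 to 0.04, adjusted p = 0.132 from limma). Both passed as lower when re-derived with Sar1 and Pdi, at -0.78 and -0.47 (adjusted p = 0.00636 each), with the shift that the 9 genes of the second normalizer share. Lea1 also passed when only the 6 compared samples were fitted (adjusted p = 0.00418) and without control replicate 2 (0.0278) or NO replicate 3 (0.0266). Lea2a, the only Lea gene above its controls in every NO sample, had 1.42, 1.45 and 1.10 in NO axes, against 1.10, 0.909 and 0.997 in control axes. The lowest NO sample and the highest control differ by 1.1048 against 1.1033, and the difference of 0.39 (95% interval 0.02 to 0.77) had an adjusted p of 0.0759. It passed when only the 6 compared samples were fitted (adjusted p = 0.0191) or without NO replicate 3 (0.0302). It also passed with centred cycles (0.71, adjusted p = 6.32e-05), where all genes are shifted upward. With Sar1 and Pdi it was 0.17 (adjusted p = 0.5), and with Pdi alone 0.06 (adjusted p = 0.785). Lea2b ran from 0.906 to 1.05 in NO axes, against 0.872 to 1.12 in control axes (-0.05, interval -0.31 to 0.21).

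Pimt ran from 0.766 to 1.11 in NO axes, against 0.987 to 1.02 in control axes. The controls were the most even of all genes, with a coefficient of variation of 1.56%, while NO samples lay on both sides of them. The log2 difference was -0.11 (95% interval -0.37 to 0.16, adjusted p = 0.569 from limma). Over all genes the median coefficient of variation was 11.4% in NO axes and 9.05% in control axes.

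Whether the response at 21 days differed from that at shorter aging was tested as the difference between the NO effects. Against 14 days, 9 of 18 genes differed (50%), with 5 more negative (27.8%) and 4 more positive (22.2%) at 21 days. The largest difference was that of Hsp70c, whose NO effect was 3.37 at 14 days and -1.26 at 21 days (difference -4.64, standard error 0.19, adjusted p = 5.31e-16 from limma). Its 14-day controls were read late, at a mean of 30.6 cycles, against 25.2 in controls at 7 days and 28.7 at 21 days. Its NO axes averaged 24.4, 27.1 and 30.0 cycles at 7, 14 and 21 days. How far the late 14-day controls make up the difference was not tested. Hsp20a also turned from higher to lower, with effects of 1.29 at 14 days and -0.49 at 21 days (difference -1.78, adjusted p = 6.43e-08). Pimt had an effect of -2.44 at 14 days and -0.11 at 21 days (difference 2.33, adjusted p = 1.26e-10). The fall of Raptor at 21 days had no counterpart at 14 days, where its effect was -0.17 (difference -1.74, adjusted p = 9.4e-07). Saur turned from lower to higher, with effects of -0.64 at 14 days and 0.59 at 21 days (difference 1.23, adjusted p = 9.4e-07). Hsp70a differed by -0.91 and Lea2a by 0.89 (adjusted p = 4.92e-05 and 0.00591), the call for Lea2a being lost with Pdi alone (0.49, adjusted p = 0.0918).

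Small differences between 21 and 14 days were less firm. Cpn60a differed by -0.45 (adjusted p = 0.0232), a call lost without control replicate 1 (0.0663) or NO replicate 3 (0.0635) of 21 days and without control replicate 2 (0.058) or 3 (0.0539) of 14 days. It was also lost with Sar1 alone (-0.36, adjusted p = 0.228) and with centred cycles (-0.13, adjusted p = 0.402). ClpB4 differed by 0.42 (adjusted p = 0.0389), a call lost with the cycles and both reference genes (0.053), with Pdi alone (0.18, adjusted p = 0.403) and without any of 8 of the 12 samples. Tor was lower at both times, and its effects of -2.03 at 14 days and -1.53 at 21 days did not differ beyond the test's threshold (difference 0.50, 95% interval -0.03 to 1.04, adjusted p = 0.113).

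Against 7 days, 3 of 18 genes differed (16.7%), all more negative at 21 days and none more positive, while 6 had an unadjusted p under 0.05 (33.3%). Hsp70c had an effect of 0.70 at 7 days and -1.26 at 21 days (difference -1.97, standard error 0.19, adjusted p = 1.11e-08 from limma). Hsp70a had -0.09 and -0.75 (difference -0.66, adjusted p = 0.00558), a call lost with centred cycles (-0.35, adjusted p = 0.0825). Pimt had 0.47 and -0.11 (difference -0.57, adjusted p = 0.0259), a call lost without NO replicate 1 of 21 days (0.0781), NO replicate 2 of 7 days (0.0569) or control replicate 2 (0.0555) or 3 (0.0507) of 7 days. It was also lost with Sar1 alone (adjusted p = 0.0894) and with centred cycles (-0.19, adjusted p = 0.177). Raptor was lower at both times, with -1.45 at 7 days and -1.92 at 21 days (difference -0.46, 95% interval -0.95 to 0.02), and Tor with -1.71 and -1.53 (0.18, interval -0.36 to 0.71). The effect on Hsp70b, read from its cycles, was 0.84 after 7 days, -0.08 after 14 days and -2.52 after 21 days of aging. The last differed from both others (by -3.36 and -2.45, adjusted p = 1.65e-15 and 1.84e-12 from limma on the cycles). With Hsp70b from its cycles in the table, 10 genes differed between 21 and 14 days (55.6%) and 7 between 21 and 7 days (38.9%; 5 lower, 27.8%, and 2 higher, 11.1%), with Lea4, Saur and Cpn60b added near the threshold (adjusted p = 0.0472 each).

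**Figure D4:**
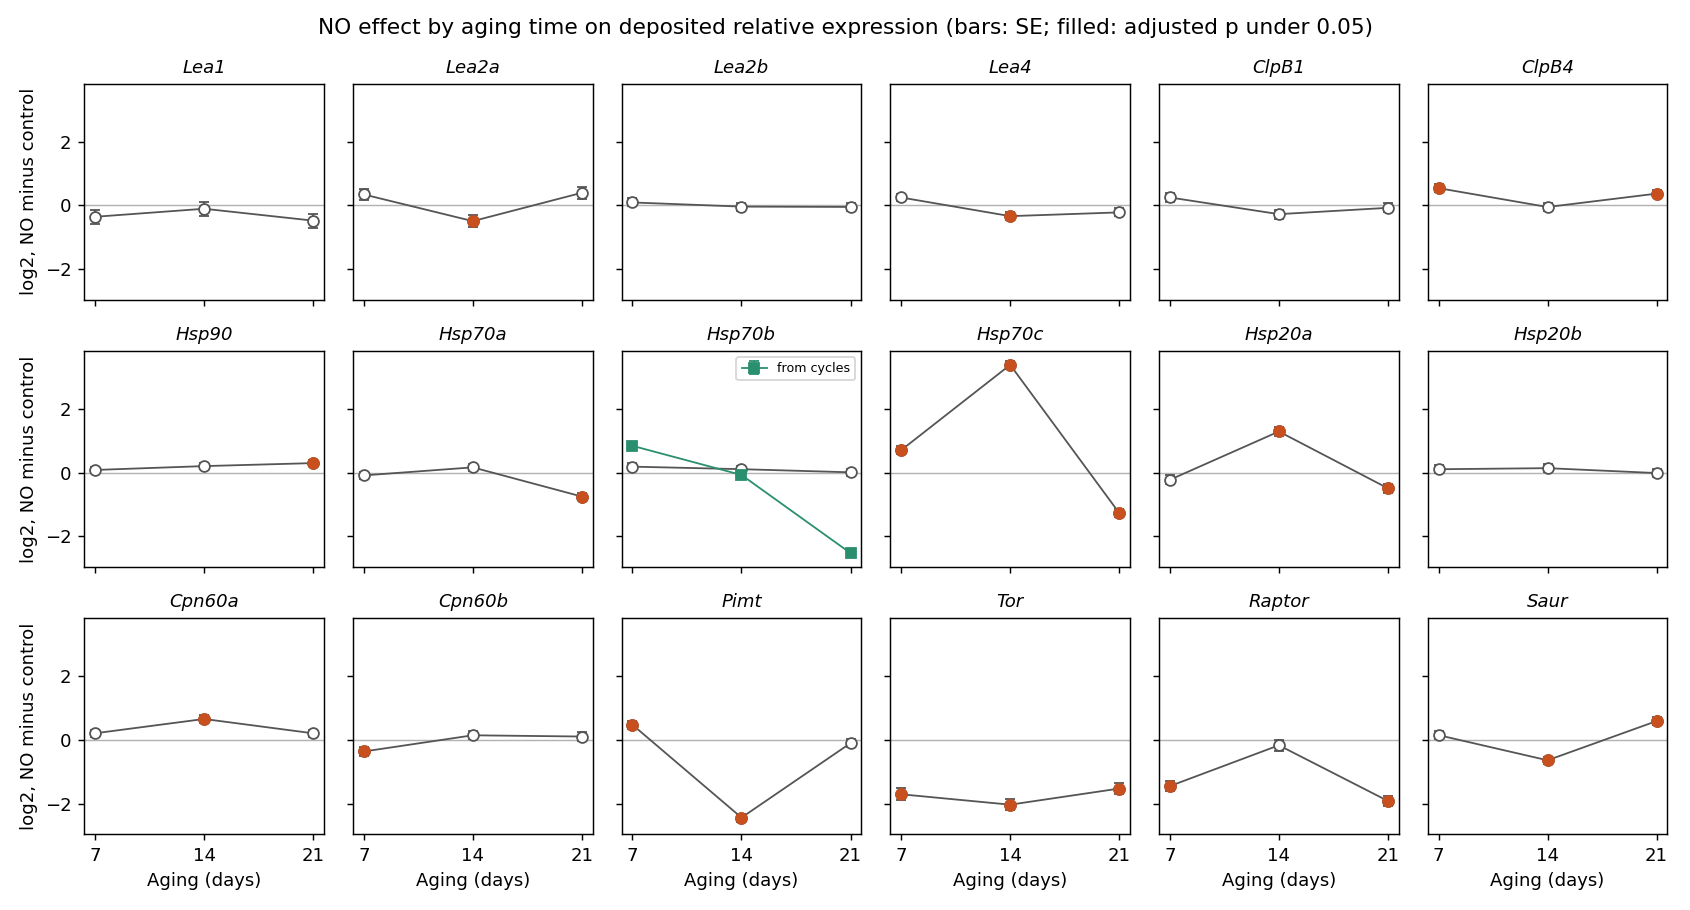
NO effect (log2, NO minus control, with SE) of each gene against days of aging, from the deposited ratios, filled where adjusted p is under 0.05. Green squares in the Hsp70b panel are from the cycles. Tor is negative at all 3 times, Hsp70c turns from 3.37 at 14 days to -1.26 at 21 days, and Hsp70b reaches -2.52 at 21 days.

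Of the 8 genes called at 21 days, 4 were also called at 14 days (50% of the 8 called at each time, where 8 of 18 are 44.4%). Tor was lower at both, while Saur, Hsp70c and Hsp20a had the opposite sign. Tor, Raptor, ClpB4 and Hsp70c were also called at 7 days (50% of the 8 at 21 days and 66.7% of the 6 at 7 days, which are 33.3% of 18), Hsp70c in the opposite direction and the other 3 in the same one. Hsp90 and Hsp70a were called at neither earlier time. The Hsp90 effect was nevertheless 0.20 at 14 days, with every NO sample above every control. Its effect at 21 days did not differ from that at 14 days (difference 0.09, adjusted p = 0.601 from limma). Nor did it differ from that at 7 days (difference 0.21, adjusted p = 0.326 from limma). Across the 17 genes without Hsp70b, as a description of genes that share normalizers, the effects at 21 and 7 days had a Pearson r of 0.67, which was -0.0038 over the 15 genes left without Tor and Raptor and 0.87 over the 16 left without Hsp70c. The r of the effects at 21 and 14 days was -0.12, with -0.59 without Tor and Raptor and 0.19 without Hsp70c. These values thus depend on a few genes.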

How the data were processed

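RT-qPCR values of 18 target and 2 reference genes were analysed. The quantification cycles were deposited as means over technical runs and are on another scale than expression, with a higher cycle meaning less template. Relative expression was deposited as a linear ratio scaled to the controls of each aging time. The study's methods state normalization to 2 reference genes without naming them there. Sar1 and Pdi, taken here as that pair, stand in the study's primer list, and the ratios of 8 target genes follow them. The authors' own fold changes were not used. Reads and depth do not apply. The number of samples limits precision. Log2 ratios, with no pseudocount since the lowest value was 0.173, were fitted with limma 3.58.1 in R 4.3.3 over 18 samples in 6 groups, which share 1 estimate of each gene's spread, with Benjamini-Hochberg adjustment over the 18 genes and a threshold of 0.05. NO effects at 21 days were also set against those at 14 and 7 days as differences of contrasts. Cycles were converted with 1 doubling per cycle. The test was run on 500 simulated tables. Alternatives were linear values, the compared groups only, no moderation, a replicate block, other reference genes, leaving out each sample, and the methods' t-test. Hsp70b from its cycles and a second normalizer were added after the data were seen. All 18 targets are named, and values of every sample are printed for genes past the threshold on ratios or cycles or without overlap. Members and lists were chosen with earlier results of these data known. The aging time and group come from the submitters' labels, and the replicate from the numbered table. The primer list and its Arabidopsis matches were taken from the study's supplement. Gene coordinates were not used here.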

Additional observations from a re-analysis of the deposited data

Results flagged for a closer look

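Differences between the NO effect at 21 days and that at 14 days passed the test for 9 genes, on the log2 scale of the deposited ratios (limma, adjusted p under 0.05). The effect at 21 days minus that at 14 days was -4.64 for Hsp70c, -1.78 for Hsp20a, -1.74 for Raptor, -0.91 for Hsp70a and -0.45 for Cpn60a. It was 2.33 for Pimt, 1.23 for Saur, 0.89 for Lea2a and 0.42 for ClpB4. Against 7 days, 3 genes passed, with -1.97 for Hsp70c, -0.66 for Hsp70a and -0.57 for Pimt. The controls of each aging time were scaled separately to about 1, so these values compare responses and not levels. The samples of each aging time cannot be told apart from any difference between runs of those times.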

How the results depend on the processing

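The limits of these results lie in the normalizer and in 3 samples a group. Relative to the deposited ratios, the median of the 18 genes moved by -0.14 with cycles and both reference genes, -0.25 with Pdi alone, -0.13 with no reference gene and 0.40 with cycles centred on the 18 targets. Each gene's own values at 21 days kept direction and side of the threshold in 277 of the comparisons with an alternative, lost the threshold in 16, gained it in 17 and changed sign in 32. These counts pool all 18 genes. For the 10 genes not called at 21 days, keeping the side means staying not called, and the 16 losses can come only from called genes. Among the 9 genes that differed between 21 and 14 days the call was kept in 190 and lost in 17, and among the 3 that differed between 21 and 7 days in 62 and 7. Calls gained by other genes enter only the counts below. The cause of the changes was not tested.

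At 21 days, where 5 genes were lower and 3 higher, 8 were lower with Sar1 and Pdi or with no reference gene. With Pdi alone 9 were lower and 1 higher, and 10 were higher after centring, which shifts all genes upward. For 21 against 14 days, where 5 were lower and 4 higher, 2 were higher with Pdi alone and 8 after centring. For 21 against 7 days, where 3 were lower and 0 higher, 1 was higher on linear values, with Sar1 and Pdi, with Pdi alone or with no reference gene, 6 after centring, and 9 were lower with no reference gene. With Hsp70b from its cycles, chosen after the data were seen, 5 were lower and 2 higher.

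Log2 differences at 21 days that changed sign were as follows. With Sar1 and Pdi they were -2.52 for Hsp70b, also when Hsp70b alone was taken from its cycles, -0.0206 for Cpn60a and -0.13 for Cpn60b. With Sar1 alone they were 0.0283 for ClpB1, -2.41 for Hsp70b, -0.0239 for Cpn60b and 0.09 for Hsp20b. With Pdi alone they were -0.0289 for Hsp90, -2.63 for Hsp70b, -0.13 for Cpn60a and -0.24 for Cpn60b. With no reference gene they were -2.51 for Hsp70b, -0.00889 for Cpn60a and -0.12 for Cpn60b. After centring they were 0.43 for Pimt, 0.26 for Lea2b, 0.0742 for Lea4, 0.46 for ClpB1, -1.98 for Hsp70b, 0.0259 for Hsp20a and 0.52 for Hsp20b. With the second normalizer they were 0.12 for Pimt, 0.15 for ClpB1, -2.29 for Hsp70b and 0.21 for Hsp20b.

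With each sample left out in turn, 4 to 6 genes were lower and 1 to 4 higher at 21 days, with 1 higher without control replicate 2 or NO replicate 2. For 21 against 14 days 4 to 5 were lower and 3 to 5 higher, and for 21 against 7 days 2 to 4 were lower and 0 to 2 higher, with 2 higher without NO replicate 3 of 21 days. The log2 difference ran from -0.235 to 0.0338 for Pimt, from -0.147 to 0.0332 for Lea2b, from -0.111 to 0.0682 for Hsp20b and from -0.0867 to 0.0965 for the ratios listed for Hsp70b. The NO minus control difference in cycles ran from -0.0197 to 0.235 for Sar1, from -0.184 to -0.0694 for Pdi and from -0.0996 to 0.0829 for their mean.

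The labels number the replicates but do not say whether same-numbered samples were paired. Deviations of same-numbered NO and control samples at 21 days correlated at -0.24, 0.27 and -0.0050 over 18 genes. Those of differently numbered samples ran from -0.45 to 0.41, so these correlations cannot decide on a pairing. With the number as a block, 6 genes were lower and 3 higher at 21 days, 5 lower and 4 higher for 21 against 14 days, and 4 lower and 2 higher for 21 against 7 days. By the methods' t-test Hsp20a had an unadjusted p of 0.0523, and ClpB4 an adjusted p of 0.0842.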
